A study of Mus musculus with 29 samples.

Results

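The genes described here encode the proteins of the cytosolic ribosome, in podocytes sorted from the mouse kidney. They were taken by symbol: Rpsa, Rplp0, Rplp1, Rplp2, and every Rpl or Rps name made of a number and at most 2 of the letters a, l and x. Of 84 such symbols in the RefSeq gene table, 81 had a probe on the array by its transcript accession (Rpl32l, Rpl6l and Rps23 did not), and 80 passed the filter on dim probes (Rpl39l did not: it was well above background on fewer than 3 arrays). These 80 members were part of 15626 genes measured, and each was read from its brightest probe. Small-subunit proteins made up 29 members and large-subunit proteins 46, and 5 were second copies or paralogs (Rpl3l, Rpl10l, Rpl36al, Rps27l, Rps4l).

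The samples came from male Pod-hCD25T/G mice of the C57BL/6J background, 8 weeks of age. Podocytes were sorted into an EGFP(+) and a TdTomato(+) population, before and at 1, 4 and 7 days after LMB2, a toxin fused to an antibody fragment against human CD25 that stops protein synthesis by modifying elongation factor 2. The labels give 25 ng of LMB2 per g of body weight after removal of 1 kidney as the treatment, without saying whether mice at day 0 had the operation, and they do not say which population carries the receptor. EGFP(+) cells were measured in 4 mice at day 0, 3 at day 1, 4 at day 4 and 4 at day 7, and TdTomato(+) cells in 4, 4, 4 and 2 mice, which makes 29 arrays from 16 mice, 13 of which gave both populations.

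A ribosome has a small subunit, which reads the mRNA, and a large subunit, which joins amino acids, and each protein is needed once per particle apart from the stalk proteins. Most of these mRNAs start with a run of pyrimidines, the terminal oligopyrimidine (TOP) tract, through which the mTOR kinase and the RNA-binding protein Larp1 control their translation. Their mRNAs are abundant in nearly every cell. Podocytes are long-lived cells that seldom divide and wrap the glomerular capillaries.

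On the arrays the members were among the brightest genes: the chosen probe lay on average above the 95th percentile of all probes for 75 of 80, and 78 were well above background on all 29 arrays. No spot was saturated, and 48.2% to 65.5% of spots per array were well above background. Levels are log2 signal minus the array's own 75th percentile, so a level compares samples for a gene and not genes with each other. Correlations between arrays of a group were at least 0.956. The 6 podocyte markers were above background in every group. In a sorted population, fewer cells with a transcript and less of it per cell cannot be told apart, and probes for these genes may also bind their many processed pseudogenes. The deposited value columns of both arrays of mouse MC221 (day 7) did not match their scanner signals, which those of the other 27 arrays did, so results at day 7 are also given without MC221.

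Start sites of members that the results turn on are shown because a pyrimidine tract at the start is common in the family. Rps20 is not shown because it had no entry among the promoter sequences used. Each line is the RefSeq sequence of build GRCm38.p6, read along the gene's strand from 30 bases before to 20 bases from the annotated start on, and capitals mark the longest unbroken run of C and T, or the first of equal runs (Rps27l, where a second run of 9 follows after 1 base).
Rps24 (chr14:24490648-24490697, plus strand): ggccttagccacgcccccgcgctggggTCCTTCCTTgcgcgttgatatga
Rps4x (chrX:102189372-102189421, minus strand): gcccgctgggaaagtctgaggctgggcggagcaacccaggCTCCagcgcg
Rpl10 (chrX:74270786-74270835, plus strand): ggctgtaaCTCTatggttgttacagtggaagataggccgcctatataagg
Rpl36a (chrX:134585624-134585673, plus strand): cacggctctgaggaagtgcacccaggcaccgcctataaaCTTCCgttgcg
Rpl39 (chrX:37085203-37085252, minus strand): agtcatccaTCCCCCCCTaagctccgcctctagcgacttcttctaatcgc
Rps12 (chr10:23787190-23787239, minus strand): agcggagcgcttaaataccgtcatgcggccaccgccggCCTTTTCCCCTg
Rpl18 (chr7:45718041-45718090, plus strand): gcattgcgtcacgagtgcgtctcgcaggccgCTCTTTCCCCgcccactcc
Rps28 (chr17:33824543-33824592, minus strand): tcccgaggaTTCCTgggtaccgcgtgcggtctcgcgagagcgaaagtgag
Rps27 (chr3:90213629-90213678, minus strand): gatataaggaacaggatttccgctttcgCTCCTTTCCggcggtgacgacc
Rps27l (chr9:66946056-66946105, plus strand): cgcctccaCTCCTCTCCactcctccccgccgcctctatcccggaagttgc
A run of at least 7 pyrimidines (C or T in any order, without a fixed motif) was present in 39 of 71 windows of this size from 59 members (54.9%), against 9845 of all 32851 windows in the table. On the other strand the same run was present in 21.1% of the members' windows and 32.1% of all. Within 5 bases of the annotated start it was present in 39.4% of the members' windows and 14.7% of all. Rps24, which fell, and Rpl18, which rose, both carry such a run at the start shown. The capitals need not mark a tract at the start. Those of Rpl10, Rpl39, Rps28 and Rps27l lie wholly before the annotated start, outside the mRNA made from it. The longest run was 4 bases in Rps4x and Rpl10 and 5 bases in Rpl36a and Rps28. Rps24 and Rps27l each had 2 annotated starts, and the one with the longest run near the start was shown. For Rps24 the run at the start is thus partly set by that choice. A run in these letters is a description of the annotated start and not of translation.

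In TdTomato(+) podocytes the ribosomal protein genes did not all move together: some fell, fewer rose, and the 95% interval of 63 of 80 lay inside a 2-fold change in either direction on day 1, and of 63 on day 4. Against day 0, 13 of 80 members were lower and 2 higher at day 1, with a limma adjusted p under 0.05 over all genes; of all genes 27.9% were lower and 23.8% higher. At day 4, 14 members were lower and 4 higher, against 35.9% and 21.4% of all genes. At day 7, with 2 mice, 1 was lower and 1 higher, against 8.47% and 10.9%. The median log2 difference of the members was -0.18 at day 1, -0.22 at day 4 and -0.13 at day 7, beside -0.13, -0.29 and -0.13 over all genes. By role, 6 of 29 small-subunit members were lower at day 1 and none was called higher, 7 of 46 large-subunit members were lower and 1 higher, and 1 of 5 paralogs (Rpl3l) was higher. At day 4, 7 small-subunit members were lower and 1 higher, 7 large-subunit members were lower and 1 higher, and 2 paralogs were higher (Rpl3l and Rps27l). Rpl3l passed the filter on dim probes only through TdTomato(+) groups after LMB2, so its calls lend these counts no support; without it 1, 3 and 0 members were higher at days 1, 4 and 7. The members' median lay within 0.1 of that of all genes at each time, while single members ranged from -1.90 to 1.53 at day 1 and from -1.19 to 2.32 at day 4.

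**Figure D1:**
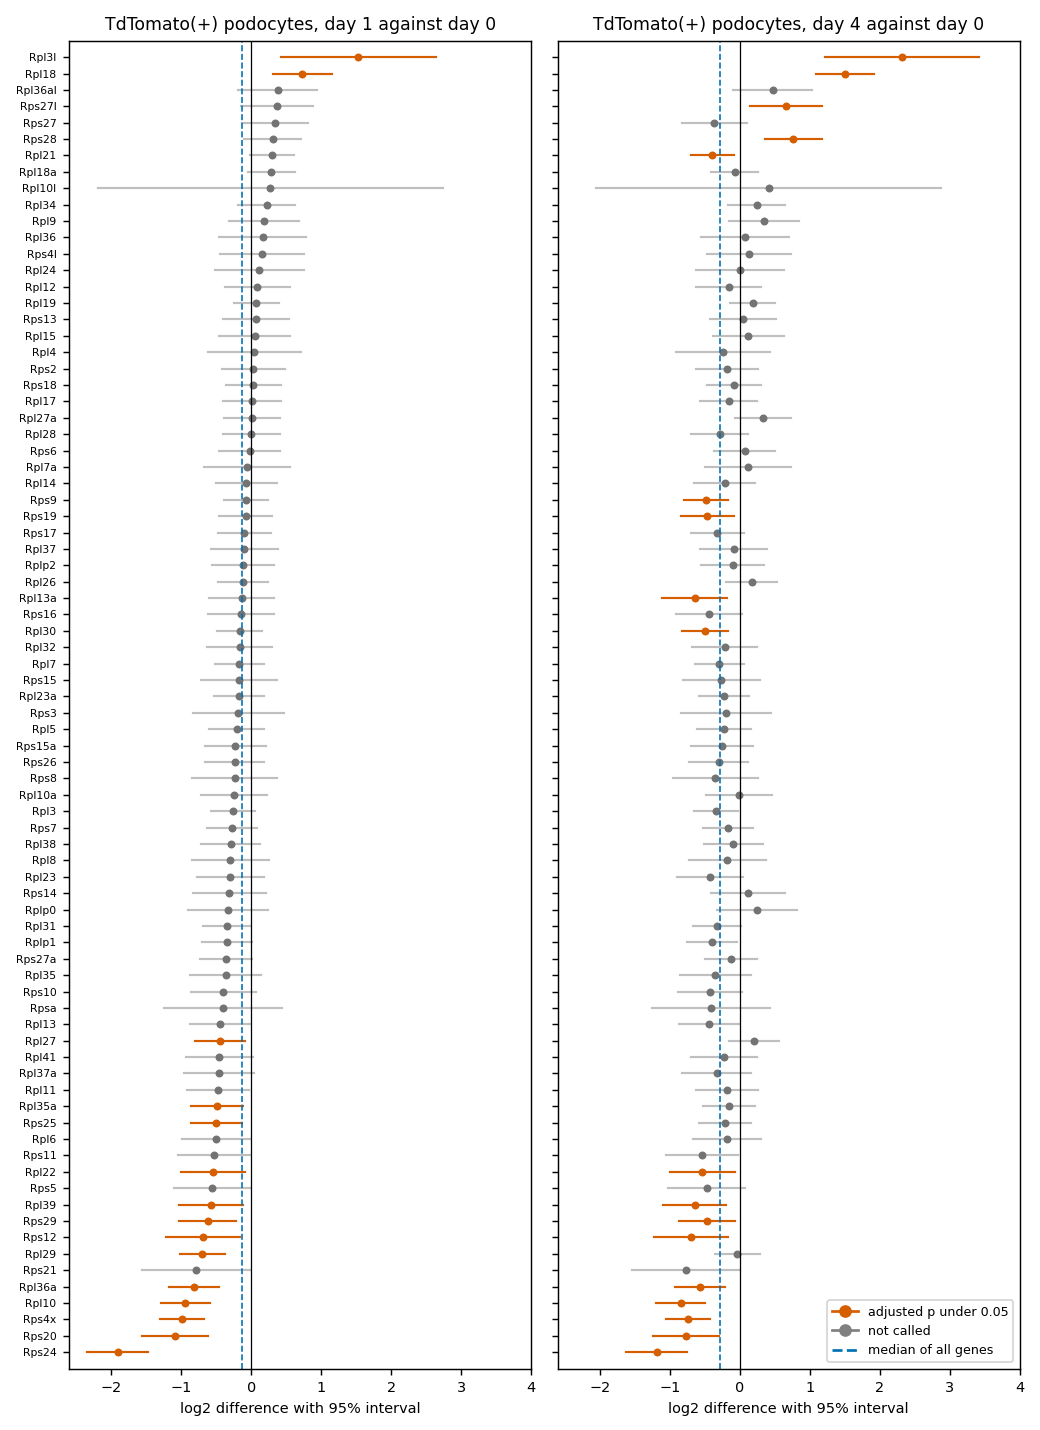
Difference in TdTomato(+) podocytes at day 1 and day 4 against day 0 (log2, horizontal) for each of the 80 members (vertical, ordered by day 1), as points with 95% intervals, called members in orange and the median of all genes as a dashed line. Most intervals cross 0, Rps24 lies lowest on both days, and Rpl3l and Rpl18 lie highest.

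The common level of the members varied more between slides than between groups. It was measured as the median over members of the difference from the mean of the 8 day 0 arrays, minus the same over all genes. On this measure the 8 arrays of slide 4 averaged 0.15 and the 5 of slide 2 averaged -0.25, with -0.08 on slide 1 and 0.06 on slide 3. All arrays of a mouse lay on the same slide, so a shift between slides cannot be told apart from differences between their mice. Group means ran only from -0.08 (TdTomato(+), day 1) to 0.10 (TdTomato(+), day 4), each with an SD of 0.28 or less. The groups overlapped on this measure: at day 0 the TdTomato(+) arrays lay between -0.25 and 0.34, and at day 4 between -0.16 and 0.38. Within slides, the members' median minus that of all genes lay between -0.22 and 0.02 for TdTomato(+) day 1 (4 slides) and between -0.06 and 0.19 for day 4 (4 slides). For day 7 it was 0.10 on slide 1 and -0.33 on slide 4 (MC221).

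**Figure D2:**
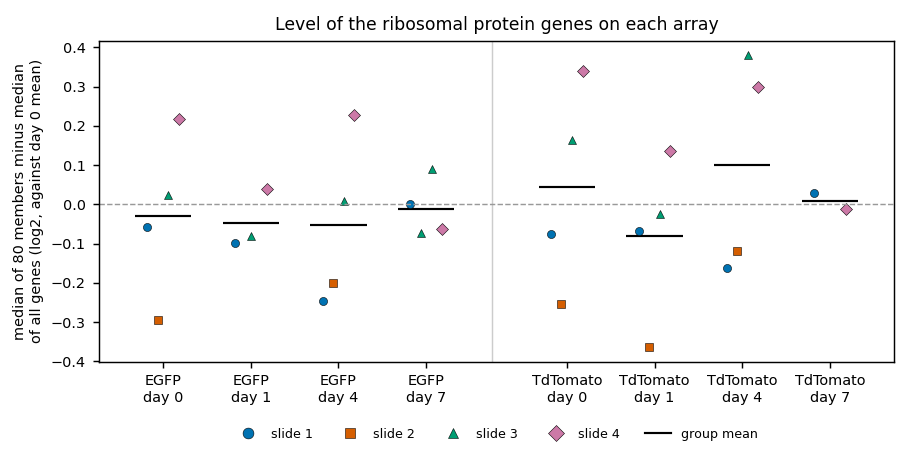
Median over the 80 members of the log2 difference from the day 0 mean, minus the median over all genes (vertical), on each of the 29 arrays by group (horizontal), with slides as symbols and group means as bars. Arrays of slide 2 lie lowest in their group in 3 of the 5 groups that hold one, and the group means lie between -0.08 and 0.10.

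Because each slide held arrays of several groups, the same model was also fitted with slide as a block, which removes the shift between slides from the error. The fit then called 33 members lower and 6 higher at day 1 (41.2% and 7.5%), against 34.2% and 27.9% of all genes. At day 4 it called 32 lower and 6 higher (40.0% and 7.5%), against 43.8% and 24.6%. At day 7 it called 12 lower and 1 higher, against 17.5% and 14.4%. All 15 members called at day 1 and all 18 called at day 4 without the block were called in the same direction with it. The count at day 1 without the block was 8 without MC122 of day 0 and 9 without MC541 of day 1, and that at day 4 was 11 without MC692. At day 7 no member was called without MC221. The median standard error of a member dropped from 0.22 to 0.13 (log2) with the block. The scaling of the arrays moved the split. At day 4 quantile normalization called 10 members higher and 14 lower (22.1% and 36.4% of all genes). Median scaling, where the median of all genes moved from -0.29 to -0.54, called 3 higher and 33 lower (17.9% and 46.2% of all genes). At day 1 quantile normalization called 4 members higher and 37 lower, or 46.2% of members lower against 29.9% of all genes, whereas without it 16.2% of members were lower against 27.9%. Median scaling at day 1 called 2 higher and 17 lower (22.7% and 28.4% of all genes). At day 7 quantile normalization gave 2 and 2 (10.02% and 6.34% of all genes) and median scaling 1 and 4 (9.52% and 19.8%). So whether the share of members called lower at day 1 was below or above that of all genes turned with the scaling and with the slide block. With and without the slide block the share of members called higher was well under that of all genes, and the difference between those shares was not tested.

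**Figure D3:**
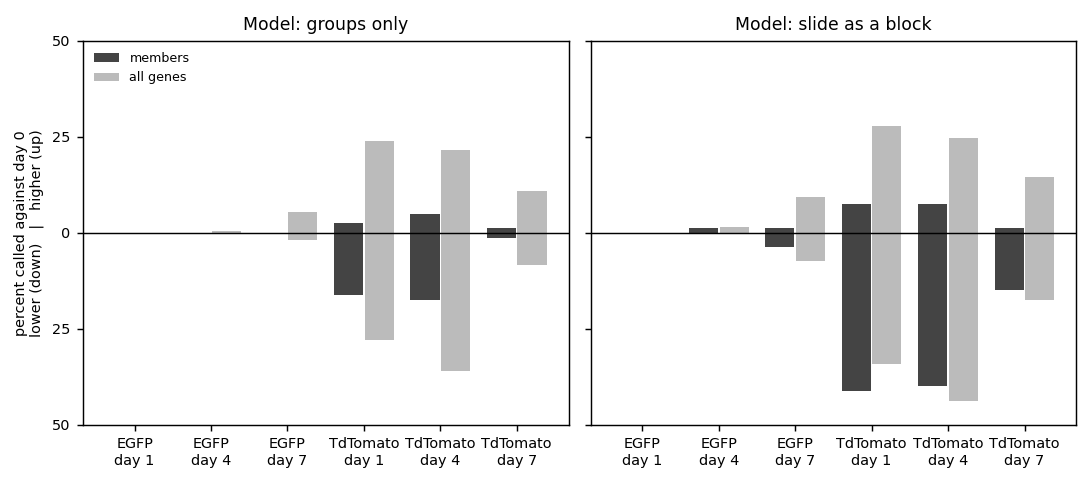
Percent of the 80 members (dark) and of all 15626 genes (light) called higher (up) or lower (down) against day 0 at an adjusted p under 0.05, in the model with groups only (left) and with slide as a block (right). In TdTomato(+) podocytes the dark bars above 0 stay at or under 7.5%, while the light bars above 0 reach 27.9%.

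Among small-subunit proteins, Rps24 had the largest fall. It is a component whose loss of a gene copy causes Diamond-Blackfan anaemia in humans. Its level in TdTomato(+) cells was 8.11, 7.50, 7.90 and 7.23 at day 0, then 5.54, 6.34, 5.82 and 5.42 at day 1 and 6.52, 6.15, 6.78 and 6.52 at day 4. At day 7 it was 7.06 and 7.03. Every array of days 1 and 4 lay below every array of day 0, and in EGFP(+) cells the levels stayed between 7.19 and 7.93 on all days. The difference was -1.90 ± 0.21 at day 1 (log2, SE; 3.74-fold lower, adjusted p = 6.1e-08) and -1.19 ± 0.21 at day 4 (2.28-fold, adjusted p = 5e-05). At day 7 it was -0.64 ± 0.26 (adjusted p = 0.084). Within slides it was lower on 4 of 4 slides at day 1, by -2.57 to -1.16, and on 4 of 4 at day 4, by -1.58 to -0.71. Rps24 had 3 probes, annotated to 3 different transcripts of the gene, and the other 2 differed by -1.05 and -0.96 at day 1 and by -0.73 and -0.80 at day 4. All 3 fell, and the brightest fell most at both times.

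Rps20, a protein of the head of the small subunit, was 8.37, 7.47, 7.71 and 7.53 in TdTomato(+) cells at day 0 and 6.98, 6.84, 6.44 and 6.48 at day 1. The groups did not overlap. The fall was -1.09 ± 0.23 at day 1 (2.12-fold, adjusted p = 0.00026) and -0.77 ± 0.23 at day 4 (1.71-fold, adjusted p = 0.0058). Rps12 fell by 0.69 and 0.70 on the log2 scale at days 1 and 4 (adjusted p = 0.028 and 0.024) and its second probe gave -0.72 at both. The day 1 call was lost without MC122 or MC742 of day 0 (-0.49 and -0.66) or MC541, MC542 or MC831 of day 1 (-0.62, -0.63 and -0.65), and the day 4 call without MC122 (-0.50) or MC692 (-0.57). Rps29 fell at both times (-0.62 and -0.47), but at day 1 not without MC122 (-0.47), and at day 4 not without MC122, MC742, MC692 or MC823 (-0.31, -0.41, -0.34 and -0.41), nor after normexp correction (-0.33). Rps25 fell at day 1 (-0.50), but not without MC122, MC742, MC541 or MC831 (-0.39, -0.42, -0.45 and -0.47). Rps9 fell at day 4 (-0.48 ± 0.15, adjusted p = 0.0083), and the call was kept without each array in turn. Rps19, another Diamond-Blackfan gene, was at -0.08 at day 1 and was called lower at day 4 (-0.46 ± 0.18, adjusted p = 0.034). That call was lost without any of 5 arrays in turn: MC122 and MC742 of day 0 (-0.42 and -0.34) and MC151, MC692 and MC823 of day 4 (-0.42, -0.39 and -0.42). It was also lost under quantile normalization (-0.21).

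Rps28, which lies beside the mRNA exit of the small subunit, rose. Its level in TdTomato(+) cells was 7.32, 6.78, 6.94 and 6.61 at day 0 and 8.12, 7.50, 7.86 and 7.23 at day 4, so the groups overlapped at the edge, although each day 4 array was above the day 0 array of the same slide. The difference was 0.77 ± 0.20 (1.70-fold, adjusted p = 0.002), and 0.31 ± 0.20 at day 1 (adjusted p = 0.2). Rps27l, a paralog of Rps27 known as a target of p53, rose by 0.66 ± 0.25 at day 4 (adjusted p = 0.028). Its call was lost under median scaling (0.41) and without any of 4 arrays: MC731 (0.51) or MC753 (0.59) of day 0, or MC151 (0.54) or MC822 (0.64) of day 4.

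Rps27 itself took opposite signs on the 2 days. Its level in TdTomato(+) cells was 8.30, 7.65, 7.99 and 7.44 at day 0, then 8.80, 7.82, 8.01 and 8.09 at day 1 and 7.72, 7.10, 7.81 and 7.28 at day 4. The differences were 0.34 ± 0.23 at day 1 (adjusted p = 0.23) and -0.36 ± 0.23 at day 4 (adjusted p = 0.17), neither of which was called. With slide as a block both were called (adjusted p = 0.04 and 0.026). The day 1 difference was also called under quantile normalization (0.37), and the day 4 difference under median scaling (-0.62). On 4 of 4 slides day 1 was above day 0 and day 4 below it. The other 3 probes gave 0.29, 0.29 and 0.47 at day 1 and -0.42, -0.38 and -0.28 at day 4. The difference between day 1 and day 4 was not tested.

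Other small-subunit members with known roles outside the particle were not called in the main fit. Rps6, the substrate of S6 kinase, differed by -0.02 ± 0.21 at day 1 and 0.07 ± 0.21 at day 4, and Rps27a, made as a fusion with ubiquitin, by -0.36 ± 0.18 and -0.13 ± 0.18. Rpsa, also known as a laminin receptor, differed by -0.40 ± 0.41 and -0.41 ± 0.41, a wide interval. With the slide block Rps27a was called lower at day 1 and Rpsa at both times. Under quantile normalization Rps27a was also called at day 1.

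In the large subunit, Rpl10 fell. It is needed for the last maturation step that lets the large subunit join the small. Its level in TdTomato(+) cells was 9.47, 8.86, 9.13 and 8.69 at day 0, then 8.31, 8.13, 8.09 and 7.86 at day 1 and 8.37, 7.94, 8.37 and 8.10 at day 4, with no overlap. Day 7 gave 8.78 and 8.84. The difference was -0.94 ± 0.17 at day 1 (1.92-fold, adjusted p = 5.1e-05) and -0.84 ± 0.17 at day 4 (1.79-fold, adjusted p = 0.00022). The other 2 probes gave -0.75 and -0.77 at day 1 and -0.68 and -0.73 at day 4.

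Rpl39, a small protein lining the exit tunnel, fell by 0.58 and 0.65 on the log2 scale at days 1 and 4 (adjusted p = 0.031 and 0.015), and 2 further probes gave -0.60 and -0.74 at day 1. Without MC122 of day 0 these became -0.41 and -0.48 and were not called. The day 1 call was also lost without MC742 of day 0 (-0.52) or without MC541, MC542 or MC831 of day 1 (-0.57, -0.56 and -0.52), and the day 4 call without MC692 (-0.45). Rpl36a fell by 0.81 and 0.56 (adjusted p = 0.00031 and 0.0076). Of its other 2 probes, 1 gave -0.81 and -0.55 and the other -0.11 and 0.02, so the probes disagree.

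Rpl29 was lower at day 1 (-0.70 ± 0.15, adjusted p = 0.00047) and at -0.03 at day 4. Rpl27 was lower at day 1 (-0.45 ± 0.17) and at 0.20 at day 4, and its call was lost without MC122, MC742, MC541, MC542 or MC831 (-0.32, -0.40, -0.44, -0.44 and -0.38). Rpl35a was lower at day 1 (-0.49 ± 0.18, adjusted p = 0.023), but not without MC122 (-0.40) or MC742 (-0.41) of day 0 or MC541 of day 1 (-0.42). Rpl13a was lower at day 4 (-0.64 ± 0.22), but not without MC122, MC742 or MC692 (-0.51, -0.56 and -0.47). Rpl30 was lower at day 4 (-0.49 ± 0.16), but its probes disagree: their mean gave 0.04. Rpl22, an RNA-binding protein that the ribosome can do without, was called lower on both days (-0.55 and -0.54; adjusted p = 0.043 and 0.044). Its second probe gave 0.13 at day 1, and with the mean of probes the day 1 value was -0.21 and not called. The day 1 call was also lost without any of 5 arrays (MC122, MC731, MC541, MC542 and MC831: -0.37, -0.58, -0.55, -0.42 and -0.52). The day 4 call was lost without MC122, MC731, MC692, MC822 or MC823 (-0.36, -0.57, -0.45, -0.50 and -0.54), and under quantile normalization (-0.33). Both calls were lost with no filter on dim probes and without both MC221 arrays, where the values did not move.

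Rpl18 rose, and no other well-measured member rose as much. Its level in TdTomato(+) cells was 6.60, 6.31, 6.88 and 6.15 at day 0, then 7.41, 7.04, 7.51 and 6.88 at day 1 and 8.35, 8.07, 8.15 and 7.39 at day 4. Day 7 gave 6.55 and 6.72. The lowest array of day 4 lay above the highest of day 0. The difference was 0.73 ± 0.20 at day 1 (1.66-fold, adjusted p = 0.004) and 1.50 ± 0.20 at day 4 (2.84-fold, adjusted p = 1.6e-06). It was higher on 4 of 4 slides at day 1 (0.63 to 0.81) and at day 4 (1.24 to 1.76). Rpl18 had a single probe, so no second probe bears on it.

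The stalk and the proteins that bind 5S rRNA were not called in the main fit, which has no block. Rplp0, the base of the stalk that recruits elongation factors, differed by -0.33 ± 0.28 at day 1 and 0.25 ± 0.28 at day 4. Rplp1 differed by -0.35 ± 0.17 and -0.39 ± 0.17 (adjusted p = 0.094 and 0.053), and Rplp2 by -0.12 ± 0.21 and -0.10 ± 0.21. With the slide block Rplp1 was lower on both days and Rplp0 at day 1. Rplp1 was also called at day 4 with mouse as a random block and under median scaling. Under quantile normalization Rplp0 and Rplp1 were called at day 1 and Rplp1 at day 4. Rpl5 and Rpl11, which together with 5S rRNA can bind Mdm2, differed by -0.21 ± 0.19 and -0.47 ± 0.21 at day 1 (adjusted p = 0.39 and 0.067), and by -0.23 and -0.19 at day 4. At day 1 Rpl11 was called lower with slide as a block (adjusted p = 0.0012), with mouse as a random block, after normexp correction and under quantile and median scaling. Rpl5 was called at day 1 under quantile normalization and at day 4 under median scaling. Rplp0 at day 4 was called higher under quantile normalization (0.39).

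**Figure D4:**
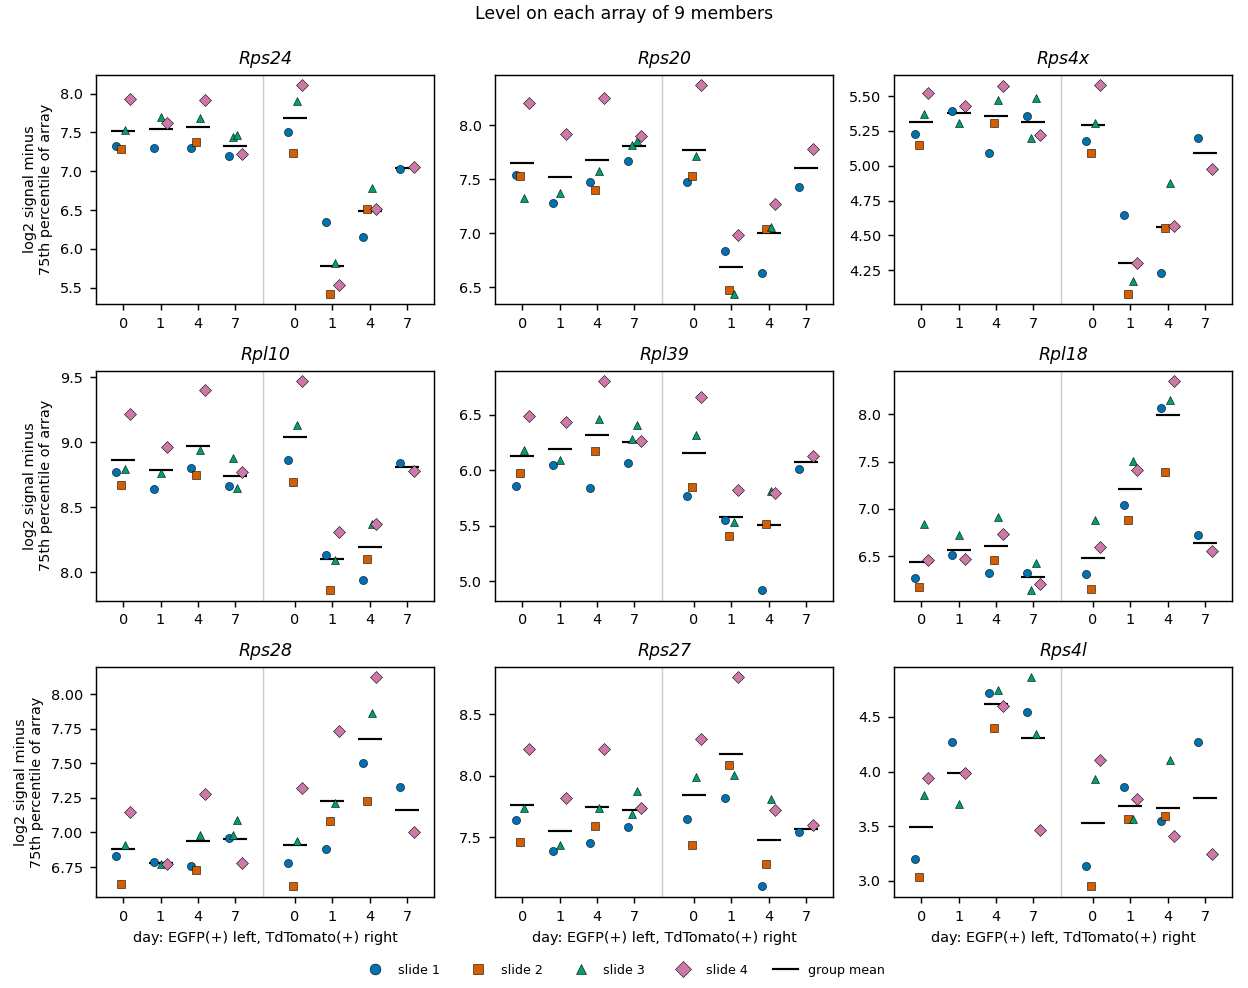
Level of 9 members (log2 signal minus the array's 75th percentile, vertical, with its own scale in each panel) on each array, by day for EGFP(+) cells at left and TdTomato(+) cells at right of each panel, with slides as symbols and group means as bars. In TdTomato(+) cells Rps24, Rps20, Rps4x, Rpl10 and Rpl39 lie low at days 1 and 4, Rpl18 lies high at both and Rps28 at day 4, while Rps4l is higher in EGFP(+) cells at day 4.

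A feature that the choice of members did not use is the chromosome. All 4 members on chromosome X in RefSeq (Rps4x, Rpl10, Rpl36a and Rpl39) fell in TdTomato(+) cells at day 1 and at day 4, an observation made after their values were seen. It rests on the brightest probe of each, and the probes of Rpl36a disagree, as given above. Rps4x, the X-linked copy of the S4 gene, was 5.58, 5.18, 5.31 and 5.09 at day 0, then 4.30, 4.65, 4.17 and 4.08 at day 1 and 4.57, 4.23, 4.88 and 4.55 at day 4. Neither day overlapped day 0, and the difference was -0.99 ± 0.15 (1.98-fold, adjusted p = 6.2e-06) at day 1 and -0.73 ± 0.15 (1.66-fold, adjusted p = 0.00026) at day 4. Over the 516 measured genes of chromosome X the median difference was -0.28 at day 1 and -0.40 at day 4, against -0.13 and -0.29 over all genes. Of these 516, 156 and 194 were called lower (30.2% and 37.6%), near the 27.9% and 35.9% of all genes. Rpl36al, the autosomal copy of Rpl36a, was not called (0.38 ± 0.27 and 0.47 ± 0.27), but with slide as a block it was called higher on both days (adjusted p = 0.022 and 0.0051), as it was at day 4 under quantile normalization (0.67). Rps4l, the other S4 copy measured here, was not called in TdTomato(+) cells either (0.15 ± 0.29 and 0.13 ± 0.29). At day 7 the 4 X-linked members lay between -0.22 and -0.08, and none was called.

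In EGFP(+) podocytes no member was called at day 1, 4 or 7 against day 0 by limma, and 0, 1 and 2 members had an unadjusted p under 0.05. Of all genes 0.0256%, 0.595% and 7.26% were called. The members' median difference was -0.02, 0.06 and 0.02, and the 95% interval of 77, 77 and 76 of 80 members lay inside a 2-fold change in either direction. The member nearest to a call was Rps4l, a copy of the S4 gene that RefSeq lists as a non-coding transcript. Its level in EGFP(+) cells was 3.94, 3.20, 3.79 and 3.04 at day 0 and 4.60, 4.72, 4.75 and 4.40 at day 4, with no overlap. The difference was 1.13 ± 0.29 (2.18-fold, adjusted p = 0.084), and it was called with slide as a block (adjusted p = 0.038), with mouse as a random block (0.04), with the deposited values and without MC221. At day 7 it was 3.47, 4.54, 4.86 and 4.34, a difference of 0.81 ± 0.29 (adjusted p = 0.1). Without MC221 it was 1.09 and called. Rplp0 differed by 0.49 ± 0.27 at day 7, which was called with slide as a block and under quantile normalization, and with the slide block Rpl21, Rpl26 and Rps6 were called lower.

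Between the 2 populations no member was called at day 0, and none had an unadjusted p under 0.05; 0.0% of all genes were called. At day 1, 7 members were lower and 2 higher in TdTomato(+) than in EGFP(+) cells, against 25.6% and 23.7% of all genes. At day 4, 10 were lower and 3 higher, against 38.6% and 21.0%, and at day 7 only Rpl3l differed, against 6.99% of all genes. Without Rpl3l, 2 members were higher at day 4 and none was called at day 7. Since 13 mice gave both populations, the comparison was also made within mice. With mouse as a block, 20 members were lower and 7 higher at day 1 and 38 lower and 6 higher at day 4, against 32.7% and 28.2% and against 48.0% and 25.4% of all genes. The 9 and 13 members called without the block were all among them in the same direction. At day 4 quantile normalization gave 9 higher and 11 lower (21.9% and 38.7% of all genes) and median scaling 2 and 38 (17.1% and 48.9%). At day 1 quantile normalization gave 3 and 34 (22.9% and 28.4%) and median scaling 0 and 9 (21.7% and 27.0%).

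Among members well above background on every array, Rps24 and Rps4x differed most between the populations at day 1 and Rpl18 and Rps24 at day 4. The values were those of Rps24 (-1.76 ± 0.23 at day 1, -1.08 ± 0.21 at day 4), Rps4x (-1.08 ± 0.16 and -0.80 ± 0.15) and Rpl18 (0.65 ± 0.22 and 1.38 ± 0.20). Rps20 differed by -0.84 ± 0.24 at day 1, or by -0.64 and was not called, without MC125 of the EGFP(+) cells. Rpl36a and Rpl39 were lower at both times (-0.74 and -0.63; -0.61 and -0.81), as was Rpl10 (-0.69 and -0.78), and Rps28 was higher at day 4 (0.74 ± 0.20; not called under median scaling, 0.45). The Rpl10 call at day 1 was lost with the mean of probes (-0.57). Rps20 at day 4 (-0.68) was not called without MC151 of EGFP(+) (-0.49) or MC692 of TdTomato(+) (-0.55). Rps27 was higher at day 1 (0.63 ± 0.24, adjusted p = 0.036), but not without MC125 of TdTomato(+) (0.42) or MC541 or MC542 of EGFP(+) (0.55 and 0.57), nor under median scaling (0.55) or with the mean of probes (0.58). The Rpl18 call at day 1 was lost without MC125 or MC541 of EGFP(+) (0.60 and 0.62) or MC542 of TdTomato(+) (0.55), or under median scaling (0.57). The Rpl39 call at day 1 was lost without MC125 or MC542 of EGFP(+) (-0.49 and -0.66) or MC541, MC542 or MC831 of TdTomato(+) (-0.60, -0.60 and -0.56). Rps4l was lower in TdTomato(+) than in EGFP(+) cells at day 4 (-0.95 ± 0.29, adjusted p = 0.0072; within mice -0.95 ± 0.10, adjusted p = 8.9e-06), lower in 4 of 4 mice.

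Whether the change from day 0 differed between the populations was tested as an interaction. It was called for 6 members at day 1, all more negative in TdTomato(+) cells (20.1% of all genes more negative, 18.3% more positive). At day 4 it was called for 7 more negative and 3 more positive members (28.3% and 16.0% of all genes), and at day 7 for Rpl3l alone (2.69% of all genes either way). Without Rpl3l, 2 were more positive at day 4 and none was called at day 7. With mouse as a block, 19 members were more negative and 6 more positive at day 1, against 29.4% and 24.4% of all genes. At day 4 these were 37 and 5; the 46.2% of members that were more negative lay near the 43.0% of all genes, and 21.3% of all genes were more positive. Rps24 (-1.93 ± 0.31 at day 1, -1.24 ± 0.30 at day 4), Rps4x, Rps20, Rpl10 and Rpl36a were called on both days. At day 4 the count was 6 without MC122 or MC692 of TdTomato(+) or without MC151 of EGFP(+), quantile normalization gave 4 and 4 (25.2% and 17.6% of all genes), and median scaling 18 more negative and 2 more positive (37.9% and 13.7%). At day 1 quantile normalization gave 21 more negative and 2 more positive (21.5% and 18.4%). These comparisons share their day 0 samples with the ones above.

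The paralogs of restricted tissues were close to background. Rpl3l, the striated-muscle form of Rpl3, was well above background on 5 of 29 arrays, all TdTomato(+): 2 of 4 at day 1, 2 of 4 at day 4 and 1 of 2 at day 7. It passed the filter only through these groups, so its fitted differences, called at each time (adjusted p = 0.018, 0.00077 and 0.0021), are given as a description. Day 0 gives only a bound, set for each array at the higher of its own signal and the dimmest probe well above background. Against that bound its mean was 1.23-fold higher at day 4 (means -4.54 and -6.86) and 1.98-fold higher at day 7, and no fold can be given at day 1. These folds are not lower limits, because the means include arrays not well above background. After normexp background correction none was called, the sign at day 1 turned (-0.08) and the day 4 difference was 0.02. Without MC221 the day 7 value was 2.60 and was not called, and the day 1 call was lost without MC753 of day 0 (1.34) or MC125 of day 1 (0.96). Rpl3 itself was not called (-0.26 ± 0.15 and -0.34 ± 0.15), but at day 4 it was called lower with slide as a block (adjusted p = 0.011), with mouse as a random block and under median scaling (-0.59), and at day 1 under quantile normalization (-0.34). Rpl10l, a testis form of Rpl10, was well above background on 7 arrays and was not called, except after normexp correction at day 4, between the populations (-0.66) and in the interaction (-0.89).

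Rpl21 was the only other member called at day 7 (-0.70 ± 0.18, adjusted p = 0.0093). Its brightest probe is dim for this family (0.67 on the level scale), its second probe gave 0.98, and without MC221 the value was -0.45 and not called. At day 4 it was called lower (-0.39), but not after normexp correction (-0.33), under quantile normalization (-0.31) or with the mean of probes (-0.16).

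Ribosomal proteins whose symbols fall outside the rule gave calls in both directions. Rps3a1 fell at day 1, 4 and 7 (-0.69 ± 0.13, -0.60 ± 0.13 and -0.57 ± 0.15; adjusted p = 5.8e-05, 0.00031 and 0.012). Fau, a fusion with S30, and Rack1, a scaffold on the small subunit, were not called (-0.42 and -0.31 at day 1). Rpl7l1, which is related to Rpl7, rose at day 1 (1.23 ± 0.23, adjusted p = 7.4e-05), and Rpl22l1, a paralog of Rpl22, was not called (-0.14). None of these genes was called in EGFP(+) cells.

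Other genes with TOP tracts, such as elongation and initiation factors, did not share 1 direction. Of 15 measured, 3 were higher and 3 lower at day 1 in TdTomato(+) cells, against 23.8% and 27.9% of all genes. At day 4, 3 were higher and 4 lower, against 21.4% and 35.9%. Their medians were 0.02 and -0.22, beside -0.13 and -0.29 over all genes. Eif3a and Eif3e, subunits of an initiation factor, rose at day 1 (1.69 ± 0.27 and 0.97 ± 0.17), as did Npm1, a nucleolar chaperone (0.98 ± 0.24), whereas Nap1l1, a histone chaperone, and Eef1g, a subunit of elongation factor 1, fell (-0.76 ± 0.11 and -0.51 ± 0.15).

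Of 11 regulators of ribosomal protein production, 4 were higher and 4 lower at day 1, against 23.8% and 27.9% of all genes. At day 4, 2 were higher and 8 lower, against 21.4% and 35.9% of all genes. At day 7, 1 was higher and 3 lower, against 10.9% and 8.47%. Myc, a transcription factor that drives ribosome production, rose by 6.84 ± 0.44 at day 1, 5.57 ± 0.44 at day 4 and 4.34 ± 0.54 at day 7 (log2; adjusted p = 1.4e-11, 3e-10 and 3.3e-06). It was also higher in EGFP(+) cells at day 7 (2.97 ± 0.44, adjusted p = 5.5e-05). Mtor and its partner Rptor were lower at day 4 (-0.70 ± 0.14 and -1.01 ± 0.18), and Larp1 was lower at day 1 (-0.44 ± 0.13). Eif4ebp1, an mTOR target that blocks initiation, was lower at day 1 (-2.20 ± 0.25) and day 4 (-0.76 ± 0.25), and Rheb, the activator of mTOR complex 1, was higher on both days (0.89 ± 0.22 and 0.78 ± 0.22).

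Of 6 proteins that escort new ribosomal proteins to the nucleolus, 4 were higher at day 1 and none was called lower (median 0.65), against 23.8% and 27.9% of all genes. Rrs1, a 5S particle assembly factor, rose by 1.41 ± 0.17 at day 1 and 1.49 ± 0.17 at day 4, and Grwd1, a chaperone of Rpl3, by 0.87 ± 0.17 at day 1. At day 4, 2 were higher and 1 lower (Grwd1, -0.42 ± 0.17), against 21.4% and 35.9% of all genes. Tsr2, the chaperone of Rps26, was 2.15-fold higher at day 4 (adjusted p = 0.00081). At day 7, 1 of the 6 was lower (Aamp, -0.69 ± 0.17), against 8.47% of all genes.

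The 77 mitochondrial ribosomal proteins measured serve a separate ribosome. In TdTomato(+) cells 28 were higher and 13 lower at day 1, against 23.8% and 27.9% of all genes. At day 4, 12 were higher and 38 lower, against 21.4% and 35.9%. Their medians were 0.09 and -0.37, beside -0.13 and -0.29 over all genes. At day 7, 9 were lower and none was called higher, against 8.47% and 10.9%. In EGFP(+) cells none was called. The differences from the shares of all genes were not tested.

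Some markers of other cells also differed in the same samples. The summed signal of 5 measured myeloid markers (log2, same scale) was 5.26 to 5.81 in TdTomato(+) cells at day 0, 6.38 to 8.05 at day 1, 5.49 to 6.83 at day 4 and 5.51 to 6.29 at day 7, with Lyz2 not above background on any array at day 0 and 1 of the 5 markers called higher at day 1. The median difference of the myeloid markers was 0.59, 0.44 and 0.22 at days 1, 4 and 7. In EGFP(+) cells at day 4 their mean sum was still 5.24, although Ptprc, Lyz2 and Adgre1 were not above background on any array there. The summed signal of 6 proximal tubule markers in TdTomato(+) cells was -0.76 to 0.80 at day 0, -0.20 to 0.84 at day 1 and 0.46 to 4.60 at day 4. A sum weighs its brightest markers most. Of these 6, 1 was called higher at each of days 1, 4 and 7 and none was called lower. Their median difference at day 1 was -0.73. The 6 podocyte markers summed to 10.33 to 11.17 at day 0, 9.77 to 10.57 at day 1, 9.57 to 10.20 at day 4 and 10.02 to 10.50 at day 7, and 4, 5 and 4 of them were called lower. In EGFP(+) groups their mean sum was 10.23 to 10.48 and none was called. The 8 endothelial markers summed to 3.29 to 4.13 at day 0, 2.54 to 3.80 at day 1, 2.50 to 5.04 at day 4 and 4.74 to 5.55 at day 7. In turn 1 was lower, 1 higher and 4 higher at days 1, 4 and 7. The 6 mesangial and smooth muscle markers summed to 1.58 to 2.55, 0.05 to 1.00, 0.84 to 2.32 and 2.69 to 3.55. Of these 6, 1 was lower at day 1, 2 were higher and 1 lower at day 4, and 3 were higher at day 7. Of all genes 23.8%, 21.4% and 10.9% were higher and 27.9%, 35.9% and 8.47% lower at days 1, 4 and 7. The part of the other cells in the members' differences was not tested.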

How the data were processed

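RNA of sorted podocytes was labelled with Cy3 and hybridised to 1-colour Agilent arrays. Per the file headers, the deposited intensity values are processed signals of Agilent Feature Extraction 11.5.1.1, background-corrected, with 59305 non-control spots per array. The authors also deposited a log2 value table; 27 of its 29 columns matched their arrays (r of at least 0.999), at a shift of 0.12 to 0.22 and with column medians from -3.18 to -2.33, so its scale is log2 and its centring is not stated.

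Here log2 signals were set against each array's 75th percentile, outlier spots were left out, and probes well above background on at least 3 of 29 arrays were kept. Of 55681 probes, 26582 had 1 gene symbol through RefSeq and 29099 none. The brightest probe stood for each gene. No member value was missing. limma 3.58.1 in R 4.3.3 fitted 8 group means on all 29 arrays, with Benjamini-Hochberg adjustment over 15626 genes and a threshold of 0.05; the scripts were tested on simulated data. Mouse names in the labels pair the populations: residuals of the 2 arrays of a mouse correlated at 0.04 to 0.64 over 13 mice. The 4 slides held 5 to 8 arrays each, and each slide's arrays share a scan. The arrays of a mouse lay on the same slide. Alternatives were normexp correction (offset 50, on median spot signals, since the files used here hold no mean signals), quantile and median scaling, no filter, the mean of probes, the deposited log2 values, mouse and slide blocks, and leaving out arrays.

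Described members are those fixed by role, the largest 4 called in each direction per comparison (2 for interactions), and called list genes; members named outside this rule were chosen after their values were seen. A gene of the list of ribosomal proteins outside the symbol rule is not reported here. The members and lists were chosen with earlier results of these data known. P-values of the fit without a block measure the spread between mice of a group, which includes the shift between slides. That fit treats the 2 arrays of a mouse as independent. Comparisons of the populations with mouse as a block use the spread of the differences within mice. The number of arrays limits precision, above all at day 7, with 2 TdTomato(+) mice.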

Additional observations from a re-analysis of the deposited data

Results flagged for a closer look

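The change from day 0 differed between the populations by the interaction test (TdTomato(+) minus EGFP(+), log2) for 6 members at day 1: Rps24 (-1.93), Rps4x (-1.05), Rps20 (-0.96), Rpl10 (-0.87), Rpl36a (-0.78) and Rpl29 (-0.65). At day 4 it differed for Rps24 (-1.24), Rpl10 (-0.95), Rpl39 (-0.84), Rps20 (-0.80), Rps4x (-0.78), Rpl36a (-0.67) and Rps9 (-0.60), and for Rpl3l (2.43), Rpl18 (1.33) and Rps28 (0.71) the other way. At day 7 it differed for Rpl3l (3.14), a probe near background. Of these, the calls of Rps24 at both times, Rps4x at day 1 and Rpl18 were kept under every alternative. Those of Rpl10 were lost with the mean of probes (-0.77 and -0.83) and at day 4 under quantile normalization (-0.54), as was that of Rps4x at day 4 (-0.42). The day 1 calls of Rpl36a (1 array: MC125 of EGFP(+), -0.64), Rps20 (4 arrays, -0.88 to -0.76) and Rpl29 (5 arrays, -0.62 to -0.57) were lost when an array was left out. So were the day 4 calls of Rps9 (3 arrays, -0.52 to -0.49), Rpl36a (4, -0.59 to -0.53), Rpl39 (7, -0.79 to -0.64), Rps20 (10, -0.83 to -0.60) and Rps28 (11, 0.56 to 0.73). At day 4 the call of Rpl36a was also lost under quantile normalization (-0.36), normexp correction (-0.51) and the mean of probes (-0.52), that of Rps9 under quantile normalization (-0.39), that of Rps28 under median scaling (0.46), those of Rps20 and Rps28 with no filter and that of Rps20 without both MC221 arrays. That of Rpl3l was lost after normexp correction (-0.07), and its day 7 call held in 8 of 23 alternatives.

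In 90 tests of 15 values in groups of 4, by Dixon's criterion, 1 array stood apart: MC122 in TdTomato(+) cells at day 0 for Rpl36a, at 5.24 beside 4.67 to 4.70 in the other 3 mice. Chance flags about 1 in 20 groups.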

How the results depend on the processing

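Counts of members called are given here as total, with their split in the report where it stands there. Leaving out an array in turn gave 8 to 22 members for TdTomato(+) day 1 (main 15; 8 without MC122 of day 0, 9 without MC541 of day 1), 11 to 21 for day 4 (main 18; 11 without MC692), 0 to 3 for day 7 (main 2; 0 without MC221) and 0 to 1 for EGFP(+) day 7 (main 0; 1 without MC221). It gave 7 to 11 and 10 to 19 for the populations at days 1 and 4 (main 9 and 13), 0 to 1 at day 7 (main 1), and 4 to 6, 6 to 12 and 0 to 1 for the interactions (main 6, 10 and 1; at day 4, 6 without MC122 of TdTomato(+), MC151 of EGFP(+) or MC692 of TdTomato(+)). At day 7 the population call was lost without MC221 or MC791 of TdTomato(+).

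With slide as a block the counts were 1 and 4 for EGFP(+) days 4 and 7, 39, 38 and 13 for TdTomato(+) days 1, 4 and 7, 21 and 38 for the populations at days 1 and 4, and 16 and 27 for the interactions. With the replicate block (mouse) the counts of members were 1 for EGFP(+) day 4, 27 and 44 for the populations at days 1 and 4, and 25 and 42 for the interactions. The mouse block changed no other count by over 1.5 times. Quantile normalization gave 1 for EGFP(+) day 7, 41 and 4 for TdTomato(+) days 1 and 7, 37 and 20 for the populations and 23 for the day 1 interaction. Median scaling, which moves the median of all genes at TdTomato(+) day 4 from -0.29 to -0.54, gave 36 (3 higher, 33 lower) and 5 for TdTomato(+) days 4 and 7, 40 and 2 for the populations at days 4 and 7, and 20 and 0 for the interactions at days 4 and 7. Normexp correction gave 4 for TdTomato(+) day 7 and 0 for the day 7 population and interaction results; the mean of probes gave 1 for TdTomato(+) day 7. The deposited values and the fit without both MC221 arrays gave 1 for EGFP(+) days 4 and 7 and 0 for each TdTomato(+) result at day 7, and no filter gave 0 for the day 7 interaction. The causes were not tested.

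The members' median minus that of all genes moved beyond the pooled SD of arrays (0.20) without the filter (-0.16, TdTomato(+) day 4), under normexp (-0.21 for TdTomato(+) day 7, -0.15 for the populations at day 7, 0.071 for the day 1 interaction) and under quantile normalization (0.30, day 4 interaction). Signs turned for dim probes, for probes that disagree and for a value near 0: Rpl3l under normexp (-0.081 at TdTomato(+) day 1, 0.15 between populations at day 0, -0.15 and -0.07 for the interactions at days 1 and 4), Rpl21 at day 7 (0.14) and Rpl30 at day 4 (0.041 against day 0, 0.026 between populations) with the mean of probes, Rps4l in TdTomato(+) cells, which was not called (-0.041 at day 1 without MC753, within -0.041 to 0.347 over arrays left out; at day 4 -0.122 under median scaling and -0.001, -0.064 and -0.018 without MC731, MC753 or MC822, within -0.064 to 0.323), and Rpl10l (0.023 at EGFP(+) day 1 and 0.10 at the day 7 interaction under normexp; -0.43 at day 0 between populations without MC122, within -0.428 to 1.217 over arrays left out; 0.47, 0.17 and 0.06 at the day 7 interaction without MC122, MC221 or MC824, within -1.433 to 0.47). Against day 0 in TdTomato(+) cells, Rps24, Rps4x, Rps20, Rpl10, Rpl36a and Rpl18 at days 1 and 4 and Rps28 at day 4 stayed called under every alternative run.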
